A study of Mus musculus with 18 samples.

Results

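The mouse placenta makes hormones and proteases that few other tissues make, and 53 genes of that kind had counts in RNA-seq libraries of dorsal root ganglia (DRG), the clusters of sensory neurons beside the spinal cord. The genes were chosen by name and count: members of the placental branches of the prolactin family (*Prl2* to *Prl8*), pregnancy-specific glycoproteins (*Psg*), *Tpbpa* and *Tpbpb*, placental cathepsins, *Ceacam11* to *Ceacam15*, *Gcm1*, *Syna* and *Synb*, each with at least 3 counts in at least 1 library. All 53 rows with such a name, of 36737 genes in the table, passed that minimum. The row nearest to it was *Prl5a1*, whose only counts were 8 in sham male 3, and no row with such a name fell below it.

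The libraries came from L3–L5 DRG of adult CD1 mice, an outbred strain, with 3 males and 3 females in each of 3 groups. One group had sham surgery. The second had a tibial fracture with vehicle, and the third a tibial fracture with protectin DX (PDX), a pro-resolving lipid mediator made from docosahexaenoic acid, both taken on day 3 after fracture. The day of the sham mice and the dose of PDX are not given in the labels, nothing there says that any mouse was pregnant, and 9 of the 18 mice were male.

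In the placenta, trophoblast cells of the embryo meet the mother's tissue. Parietal giant cells line the decidua and make placental lactogen I (*Prl3d1* and its copies), and giant cells and spongiotrophoblast make placental lactogen II (*Prl3b1*) and the proliferins (*Prl2c*). Spongiotrophoblast is marked by *Tpbpa*, glycogen cells by *Prl7b1* and *Prl6a1*, sinusoidal giant cells by *Ctsq*, and the syncytiotrophoblast of the labyrinth by the fusion proteins syncytin A and B (*Syna*, *Synb*), under the control of *Gcm1*. *Prl8a2* and *Prl3c1* are made by the decidua, which is maternal. *Psg* and *Ceacam11* to *Ceacam15* encode immunoglobulin-like glycoproteins, and *Ctsj*, *Ctsm*, *Ctsq*, *Ctsr*, *Cts3* and *Cts6* encode cysteine proteases of a placenta-specific cluster.

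The genes lie in a few clusters of the mm10 genome. Of the prolactin family genes, 21 lie on chromosome 13 between 27094190 and 28151611, and *Prl2c2*, *Prl2c3* and *Prl2c5* lie on the same chromosome between 12790816 and 13191923. The 2 *Tpbp* genes and the 6 cathepsins fill chromosome 13 from 60901188 to 61570127. The 13 *Psg* genes lie on chromosome 7 between 17074040 and 18821607, near the 5 *Ceacam* genes. All 53 identifiers are protein-coding genes of GENCODE M21, and 50 have the same start and end there.

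Some members are near copies, and their sequences show how far reads could tell them apart. The coding sequences of *Prl2c2* and *Prl2c3*, each 672 bases without the stop codon, differ at 3 bases, an identity of 99.6%. The stretches below are coding bases 1 to 60, in GENCODE M21 on GRCm38, with the differing base in capitals.
Prl2c2: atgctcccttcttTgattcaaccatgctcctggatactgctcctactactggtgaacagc
Prl2c3: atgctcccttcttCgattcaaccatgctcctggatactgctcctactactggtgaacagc

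The placental lactogen I copies are nearly as close. *Prl3d1* differs from *Prl3d2* at 14 of 672 coding bases and from *Prl3d3* at 9. Coding bases 61 to 120 are shown, with the 3 differing positions in capitals.
Prl3d1: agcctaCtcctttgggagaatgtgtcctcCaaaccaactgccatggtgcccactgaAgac
Prl3d2: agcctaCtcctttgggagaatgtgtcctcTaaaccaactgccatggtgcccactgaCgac
Prl3d3: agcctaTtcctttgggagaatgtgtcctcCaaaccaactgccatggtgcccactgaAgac

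Counted over all annotated transcripts, 56.9% of the 100-base windows of *Prl2c2* and 44.7% of those of *Prl2c3* also occurred in a transcript of another gene. For *Prl3d2* the share was 46.6% and for *Prl3d3* 40.8%, so the split of counts within these copies is uncertain. *Synb* shared 73.8% of its windows with the gene model *Gm27179*. *Tpbpa*, *Prl3b1*, *Ctsj* and *Prl7a1* shared none.

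The promoters of several prolactin genes carry the same letters close to the start site. The 80 bases upstream of the RefSeq start are shown for *Prl3b1* at chr13:27242350-27242429 (+ strand), *Prl3d1* at chr13:27094109-27094188 (+ strand) and *Prl7a1* at chr13:27642494-27642573 (- strand), on GRCm38.p6. Capitals mark TATATA, a motif picked after these sequences had been read.
Prl3b1: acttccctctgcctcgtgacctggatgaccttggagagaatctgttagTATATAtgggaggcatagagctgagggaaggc
Prl3d1: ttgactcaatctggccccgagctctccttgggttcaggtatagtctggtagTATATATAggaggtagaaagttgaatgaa
Prl7a1: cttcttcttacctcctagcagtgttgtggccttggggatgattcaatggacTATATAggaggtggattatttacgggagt

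RefSeq promoters were found for 44 of the 53 genes, 49 promoters in all. Within the 250 bases before the start, TATATA, which reads the same on both strands, occurred in 21 of these 49 (42.9%) and in 5.25% of all 32851 promoters. AGATAA, the core letters of GATA factor sites, occurred on either strand in 14 of the 49 (28.6%) and in 9.99% of all promoters. TGANTCA, the letters bound by AP-1, occurred in 12 of the 49 (24.5%) and in 6.75% of all. These counts describe letters in the windows, and promoters of 1 gene cluster share ancestry.

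Every library held these transcripts. Counts of all genes came to between 63235040 and 82824942 per library, and the 53 genes took between 0.00598% (PDX female 1) and 0.129% (sham female 2) of them. Between 41 and 52 of the 53 genes had a count in a given library, and 40 had a count in all 18. The tissue itself was as labelled: the sensory neuron genes *Trpv1*, *Scn10a*, *Calca*, *Prph* and *Avil* summed to between 3722 and 4408 CPM (counts per 1000000 counts, with library sizes scaled by the TMM method of edgeR) in every library.

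The sum over the 53 genes was highest after sham surgery. In the sham group the 6 libraries ranged from 395.9 CPM (female 3) to 1260 CPM (female 2), with a median of 862 CPM. In the fracture group they ranged from 67.3 CPM (male 3) to 575 CPM (female 3), with a median of 209.7 CPM. In the fracture plus PDX group they ranged from 59.9 CPM (female 1) to 309 CPM (male 1), with a median of 182 CPM.

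All 6 sham libraries lay above all 6 PDX libraries. Of the fracture libraries, female 3 lay inside the sham range and the other 5 lay below it. Group means were 824 ± 289 CPM in sham, 248 ± 176 CPM in fracture and 183 ± 86.8 CPM in fracture plus PDX (SD, n = 6 each). Without fracture female 3 the mean of the fracture group was 183 ± 83.1 CPM (SD, n = 5), beside 183 ± 86.8 CPM with PDX. In bulk tissue, fewer cells of a type and less RNA per cell cannot be told apart. The source of these transcripts, within the ganglia or outside them, was not tested.

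**Figure D1:**
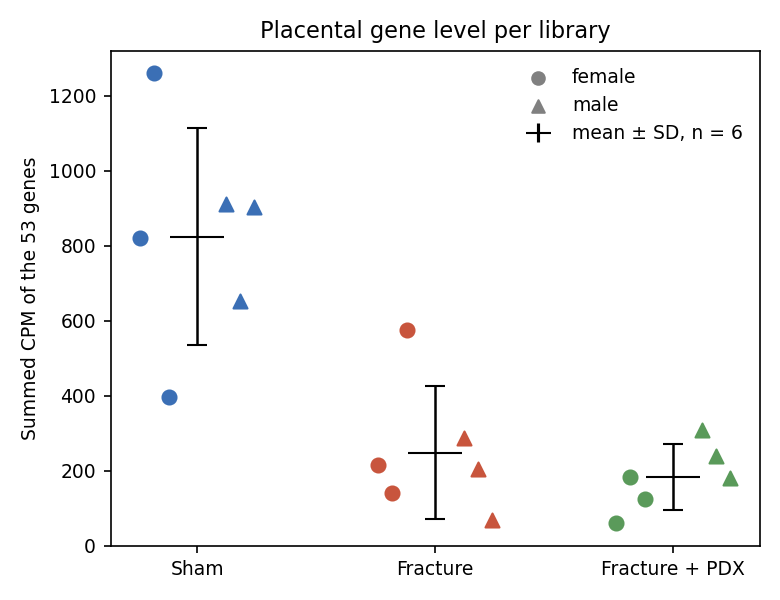
Summed CPM of the 53 placental genes (vertical axis, linear) in each of 18 libraries by group, with circles for females, triangles for males and the mean ± SD of 6 libraries in black. All sham libraries lie above all fracture plus PDX libraries, and 1 fracture library, female 3 at 575 CPM, lies within the sham range.

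Levels between genes are compared on the deposited FPKM scale, which divides by gene length. *Prl3b1*, placental lactogen II, which acts through the prolactin receptor, had the highest level. Its FPKM ran from 44.8 to 147 in sham (median 101), from 6.67 to 65.4 in fracture (median 25.6) and from 7.20 to 35.4 in fracture plus PDX (median 19.9). Ranked by FPKM among all genes of the table, *Prl3b1* stood at position 194 in sham female 2 and at 6147 in fracture male 3. Over the 18 libraries *Prl3b1* supplied between 16.7% and 21.7% of the summed FPKM of the 53 genes.

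*Tpbpa*, trophoblast specific protein alpha, had the most counts of any member, 105617 over the 18 libraries. Its FPKM ran from 31.9 to 101 in sham, from 6.27 to 47.7 in fracture and from 6.01 to 25 in fracture plus PDX. *Tpbpb*, its neighbour, ran from 7.83 to 29.9 FPKM in sham and from 1.01 to 13.9 FPKM in fracture. In both genes fracture female 3 was the only fracture library above the lowest sham library, and no PDX library reached it.

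The proliferins, growth factors of giant cells and spongiotrophoblast that act on blood vessels, stood below *Tpbpa*. *Prl2c3* had a median of 37.3 FPKM in sham, 7.00 FPKM in fracture and 6.13 FPKM in fracture plus PDX. *Prl2c5* had medians of 21.5, 4.66 and 4.46 FPKM in the same order, and *Prl2c2* of 13.8, 2.71 and 2.25 FPKM. For *Prl2c3* every sham library stood above every fracture and PDX library, while for *Prl2c5* fracture female 3 and for *Prl2c2* fracture female 3, fracture male 1, PDX male 1 and PDX male 2 reached into the sham range.

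Placental lactogen I was far lower than placental lactogen II. *Prl3d1* ran from 1.38 to 4.85 FPKM in sham, from 0.12 to 1.29 FPKM in fracture and from 0 to 1.30 FPKM in fracture plus PDX, with no count in PDX female 1. *Prl3d2* had between 6 and 17 counts in each sham library, none in any fracture library and at most 9 in a PDX library. The *Prl3d* genes together supplied at most 1.83% of the summed FPKM of a library. The order of levels, lactogen II above lactogen I, held in all 18 libraries.

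The other single-type markers stood below *Tpbpa* and *Prl3b1*. *Prl8a9*, of spongiotrophoblast, ran from 15.4 to 46.5 FPKM in sham (median 28.4), and those that follow had lower medians. *Ctsq*, the sinusoidal giant cell cathepsin, ran from 1.26 to 5.15 FPKM in sham and from 0.24 to 2.79 FPKM in fracture. *Prl7b1*, of glycogen cells, had a median of 2.31 FPKM in sham and 0.315 FPKM in fracture plus PDX, and *Prl6a1* one of 1.64 and 0.375 FPKM. *Prl8a8*, of spongiotrophoblast, had a median of 1.25 FPKM in sham, with 475 counts in sham female 2 as its highest. Markers of spongiotrophoblast, glycogen cells, sinusoidal giant cells and parietal giant cells were thus all found in every sham library.

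The syncytiotrophoblast genes differed among themselves. *Gcm1*, the transcription factor that starts syncytiotrophoblast formation, had between 8 and 48 counts in sham and no count in 5 of the 12 libraries with a fracture. *Synb* had medians of 0.435 FPKM in sham, 0.145 FPKM in fracture and 0.120 FPKM in fracture plus PDX. *Syna* followed the others less closely, with 151 to 719 counts in every library. Its FPKM ran from 2.29 to 4 in sham, from 0.97 to 2.72 in fracture and from 1.14 to 2.47 in fracture plus PDX. Decidual *Prl8a2* ran from 2.78 to 14.7 FPKM in sham and from 0.58 to 5.33 FPKM in fracture, while *Prl3c1*, also decidual, had at most 16 counts in any library.

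The 16 other prolactin genes, without *Prl3b1*, *Prl3d* and *Prl2c*, supplied between 22.8% and 29.1% of the summed FPKM of a library. *Psg* and cathepsin genes made up much of the rest. The 13 *Psg* genes, thought to act on the mother's immune cells and blood vessels, supplied between 4.19% and 11.6% of the summed FPKM of a library, led by *Psg27* (median 12.2 FPKM in sham) and *Psg21* (7.88 FPKM). The 6 cathepsins supplied between 8.49% and 12.6%, led by *Ctsj* (median 44.9 FPKM in sham, 9.10 FPKM in fracture and 8.29 FPKM in fracture plus PDX). *Cts6* had counts in 4 libraries and at most 24.

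**Figure D2:**
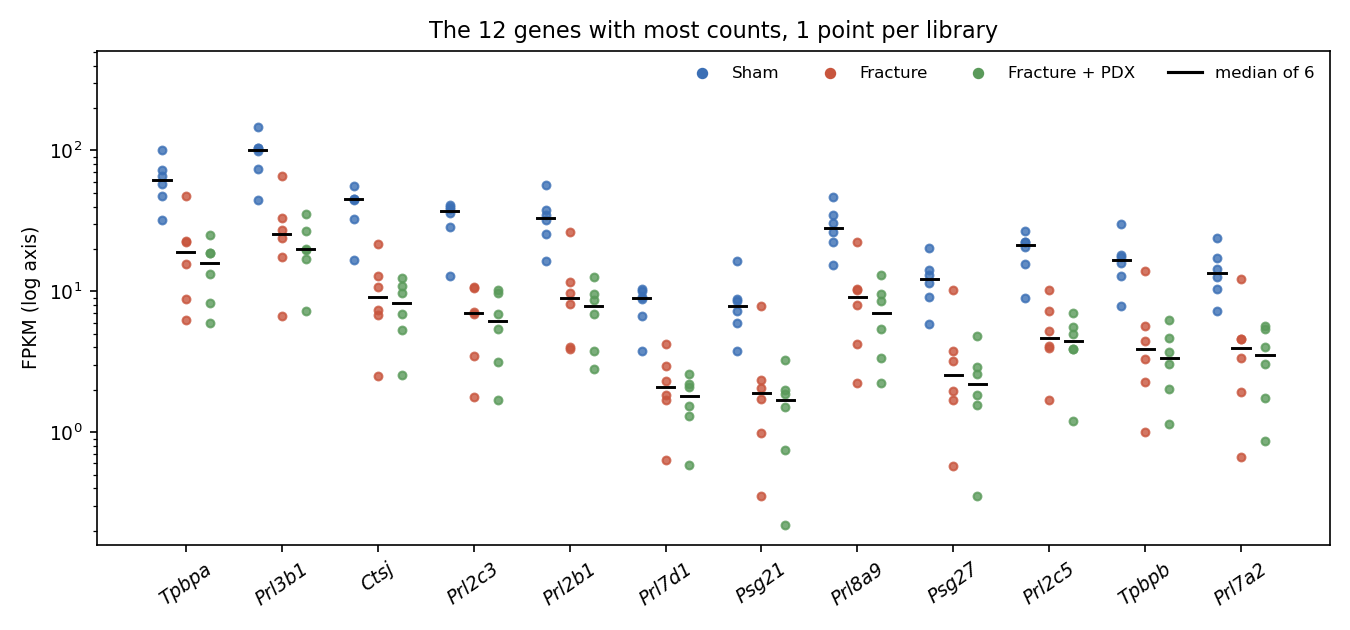
FPKM (log axis) of the 12 members with most counts, 1 point per library and a black bar at the median of 6, for sham, fracture and fracture plus PDX. Sham medians stand highest for all 12 genes, from 7.88 FPKM for *Psg21* to 101 FPKM for *Prl3b1*.

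The first comparison asked how the ganglia of mice with a fracture differed from those of sham mice. With edgeR's quasi-likelihood test on all genes that passed a filter on low counts, with sex as a covariate, 46 of the 53 genes were tested, and 7 were too low (*Prl7c1*, *Prl3d2*, *Prl3c1*, *Psg20*, *Prl3d3*, *Cts6* and *Prl5a1*). Among those tested, 11 were lower after fracture at an adjusted p under 0.05 and none was higher, against 1.83% of all genes tested that were lower. All 46 had a negative log2 fold change, with a median of -1.77 beside 0.00 over all genes. Of the 46, 4 passed the filter only when sham libraries were present (*Prl2c1*, *Prl8a1*, *Prl8a6* and *Gcm1*).

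The 11 were *Prl2c3*, *Prl7d1*, *Prl2c5*, *Psg29*, *Prl2c2*, *Prl2a1*, *Prl4a1*, *Psg22*, *Prl3d1*, *Prl6a1* and *Prl8a1*, the last of which passed the filter only through the sham libraries, where it was high. *Psg22* fell by 2.09 on the log2 scale (SE 0.34, edgeR adjusted p = 0.012), from a sham range of 2 to 5.28 CPM to 0.347 to 1.64 CPM. *Prl6a1*, of glycogen cells, fell by 1.76 (SE 0.31, adjusted p = 0.014). *Prl4a1*, a prolactin family member of giant cells and spongiotrophoblast, fell by 2.06 (SE 0.42, adjusted p = 0.029), and *Prl2a1* fell by 1.74 (SE 0.35, adjusted p = 0.032). The proliferin *Prl2c3* fell by 2.29 (SE 0.46, adjusted p = 0.033) and *Prl7d1*, another proliferin-related hormone, by 1.85 (SE 0.41, adjusted p = 0.046).

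Of the 6 members with most counts, *Prl2c3* and *Prl7d1* passed in this comparison and 4 did not. *Tpbpa* had a log2 fold change of -1.62 (SE 0.50, edgeR adjusted p = 0.125), *Prl3b1* of -1.76 (SE 0.49, adjusted p = 0.092), *Ctsj* of -1.99 (SE 0.48, adjusted p = 0.060) and *Prl2b1* of -1.68 (SE 0.50, adjusted p = 0.111). Fracture female 3 was the highest fracture library for each of the 4, and without it 22 members were called. Every sham library was above every fracture library for 7 of the 46 tested genes, against 1.53% of all genes tested. The count of calls also fell to 2 without sham female 2, sham male 2, sham male 3, fracture female 1, fracture female 2 or fracture male 2, to 3 without sham female 1, to 6 without sham male 1 and to 7 without fracture male 3. DESeq2 called 34 members, and edgeR without the filter on low counts called 4 of 53.

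Fracture plus PDX was then compared with sham. Of 46 members tested, 37 were lower at an adjusted p under 0.05 and none was higher, against 2.32% of all genes tested that were lower. The median log2 fold change was -2.25, and all 46 were negative. These 46 again include *Prl2c1*, *Prl8a1*, *Prl8a6* and *Gcm1*, which passed the filter only through the sham libraries, where they were high. The negative sign of these genes follows in part from the filter. The 9 that did not pass were *Psg23*, *Prl7a1*, *Prl8a1*, *Psg16*, *Psg26*, *Prl2c1*, *Gcm1*, *Prl8a6* and *Prl3d1*. Every sham library lay above every PDX library for 35 of the 46, against 1.48% of all genes tested. The sham libraries are the same as in the comparison above, so the comparisons are not independent.

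The lowest adjusted p in this comparison was that of *Prl6a1*, which fell by 1.98 (SE 0.26, edgeR adjusted p = 0.0019). *Prl7b1*, the other glycogen cell gene, fell by 2.39 (SE 0.37, adjusted p = 0.0045), *Psg19* by 2.11 (SE 0.32, adjusted p = 0.0045) and *Ctsr* by 2.36 (SE 0.38, adjusted p = 0.0063). *Synb*, of syncytiotrophoblast, fell by 1.75 (SE 0.33, adjusted p = 0.0095) and *Ctsq*, of sinusoidal giant cells, by 1.90 (SE 0.34, adjusted p = 0.010). The leading spongiotrophoblast and giant cell genes passed as well: *Tpbpa* fell by 2.15 (SE 0.36, adjusted p = 0.012) and *Prl3b1* by 2.23 (SE 0.37, adjusted p = 0.012). *Syna* had the smallest fall, 0.89 (SE 0.18, adjusted p = 0.013).

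Most cell type lists held genes lower in fracture plus PDX than in sham, where 2.32% of all genes tested were lower. Of the spongiotrophoblast list 4 of 5 tested were lower, of the giant cell and spongiotrophoblast prolactins 6 of 7, of the glycogen list 2 of 3, of the syncytiotrophoblast list 2 of 3 and of the cathepsins 5 of 5. *Ctsq* and decidual *Prl8a2* were lower too. *Prl3d1*, the only placental lactogen I gene that could be tested, missed the threshold there with a log2 fold change of -2.21 (SE 0.75, edgeR adjusted p = 0.144) and passed in fracture against sham with one of -2.17 (SE 0.48, adjusted p = 0.037). In fracture against sham, where 1.83% of all genes tested were lower, the first 5 of these lists held 0 of 5, 5 of 7, 1 of 3, 0 of 3 and 0 of 5, and neither *Ctsq* nor *Prl8a2* passed.

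**Figure D3:**
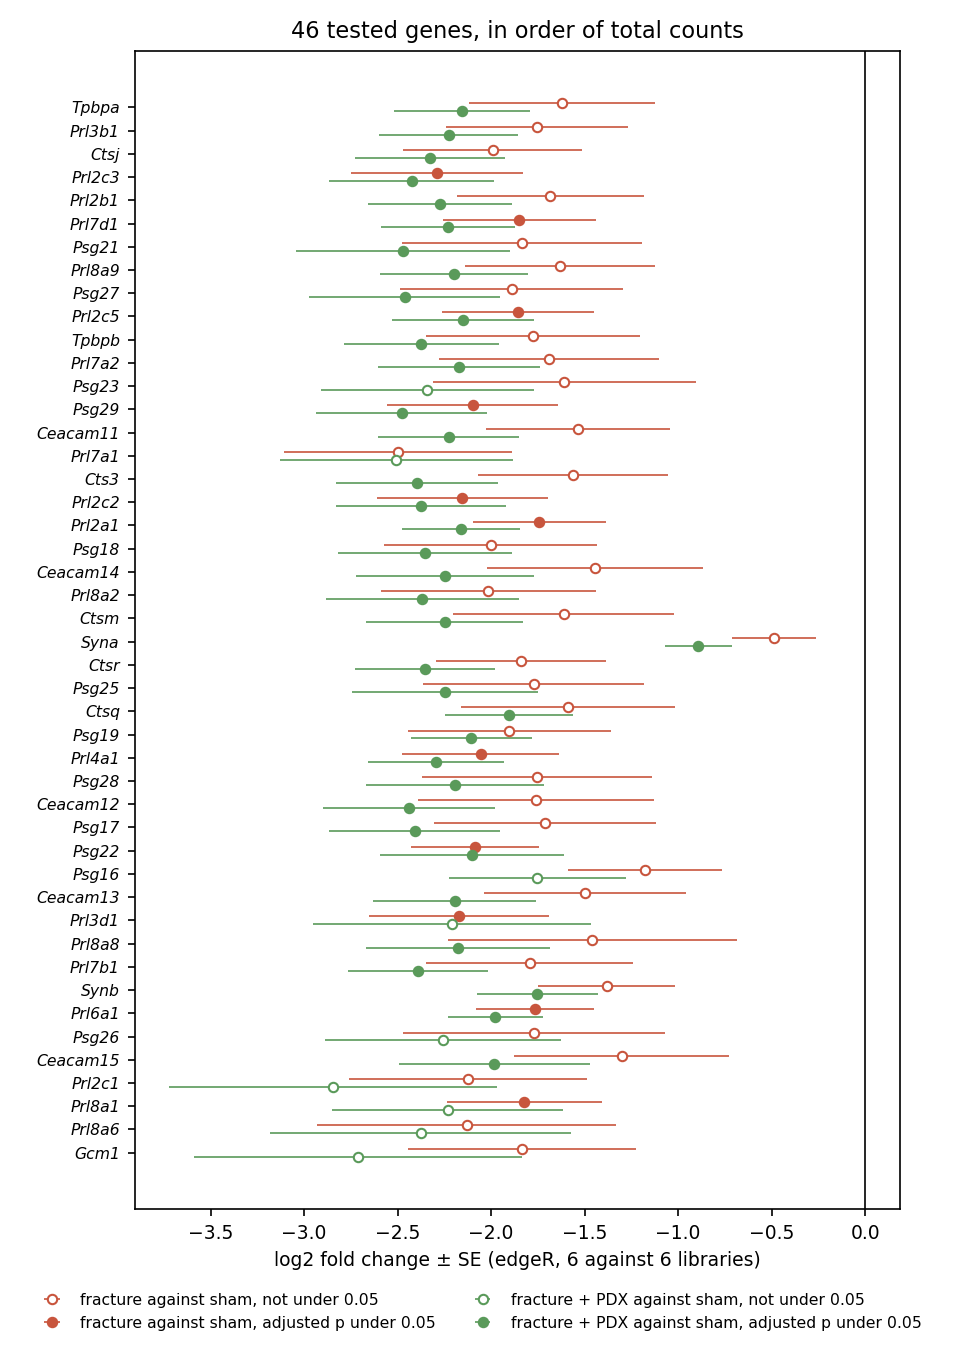
Log2 fold change ± SE (horizontal axis) of the 46 tested genes in fracture and in fracture plus PDX, each against sham, in order of total counts, with filled points where the edgeR adjusted p was under 0.05. All points lie left of 0, with 11 filled for fracture and 37 for fracture plus PDX, and *Syna* lies closest to 0.

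PDX treatment itself was tested against fracture with vehicle. None of the 42 members tested passed, none had an unadjusted p under 0.05, and DESeq2 called none either; edgeR called 0% of all 20562 genes, of which 1113 had an unadjusted p under 0.05. *Tpbpa* had a log2 fold change of -0.54 (SE 0.55) and *Prl3b1* of -0.47 (SE 0.55), with edgeR adjusted p of 0.975 and 0.980. The median over the 42 was -0.47, and without fracture female 3 it was -0.01.

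Female and male libraries were compared over all 18 with group as a covariate. None of the 46 members tested passed in edgeR, none had an unadjusted p under 0.05 and DESeq2 called none, against 0.297% of all genes tested that passed in edgeR. Summed CPM was 825 ± 432 in sham females and 822 ± 148 in sham males (SD, n = 3 each). It was 310 ± 232 in fracture females and 186 ± 111 in fracture males, and 123 ± 61.8 in PDX females and 243 ± 63.9 in PDX males, so the higher sex was not the same in the fracture groups. The group by sex interaction, tested by itself after the data had been seen, passed for no member in any of the 3 group comparisons. Its unadjusted p in edgeR was under 0.05 for 4 of 42 members in fracture plus PDX against fracture. This held for 1 of 46 in fracture against sham and for 7 of 46 in fracture plus PDX against sham. Over all genes the interaction passed for 1, 0 and 1 in the same order. The transcripts were found in male and female mice of every group.

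The members rose and fell together across libraries. Spearman's correlation of CPM with *Tpbpa* over the 18 libraries was 0.9 or more for 32 of the other 52 genes, with a median of 0.93, and was 0.66 for *Syna*. These correlations describe libraries that share the group difference. The members did not keep fixed proportions, however. Taken as FPKM per 100 FPKM of *Tpbpa*, *Prl2b1* ran only from 42.9 to 62.4 and *Prl8a9* from 35.7 to 52.0, so these genes kept nearly the same ratio in every library.

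Several other members varied more against *Tpbpa*. *Prl7a1* ran from 1.49 FPKM per 100 of *Tpbpa* in PDX male 3 to 25.5 in PDX female 3. *Prl3d1* ran from 0 in PDX female 1, and 0.265 in PDX male 3, to 15.6 in PDX female 3. *Prl7b1*, of glycogen cells, spread 7.99-fold from its lowest to its highest library, decidual *Prl8a2* 7.93-fold, *Psg23* 6.32-fold and *Prl8a8*, of spongiotrophoblast, 5.92-fold. The lowest ratios of *Prl7b1* and *Prl8a8* were in fracture male 3, where these genes had only 4 and 7 counts. *Syna* spread 11.2-fold. Genes on the giant cell lists lay at both ends, with *Prl3b1* at 1.93-fold, *Ctsq* at 3.4-fold, *Prl2c3* at 5.34-fold and *Prl7a1* at 17.1-fold. *Prl7a2*, the neighbour of *Prl7a1*, ran from 10.7 to 28.5. *Prl7a1* and *Psg23* were picked for this comparison after their values had been seen. These differences in spread were not tested. Among the sham libraries *Prl7a1* kept between 10 and 20.6, so the libraries with the widest spread were those of the fracture groups.

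The libraries with the least *Prl7a1* per *Tpbpa* were low in several other members. Fracture male 2 and PDX male 3 had 1.54 and 1.49 FPKM of *Prl7a1*, 15.4 and 16.8 FPKM of *Prl2c3* and 29.8 and 28.4 FPKM of *Ctsj* per 100 of *Tpbpa*, beside medians over all libraries of 12.7, 43.3 and 57.8. The same libraries were low in *Prl7b1* (2.25 and 1.11, median 3.74), *Psg27* (8.59 and 9.71, median 18.9) and *Prl8a2* (4.63 and 3.50, median 14.6). Fracture male 3, with 4.31 of *Prl7a1*, also lay below the median for each of these genes. Fracture female 3, with 5.22 of *Prl7a1*, was above it for *Psg27* (21.6) and *Prl7b1* (4.01). PDX female 1, with 3.83 of *Prl7a1*, was above it for *Prl8a2* (16.3). Fracture female 2 and PDX female 3 lay at the other end for *Prl7a1* and *Prl2c3*, with 25.2 and 25.5 FPKM of *Prl7a1* and 79.0 and 82.4 FPKM of *Prl2c3*. They had 3.99 and 2.76 FPKM of *Prl7b1*, 19.4 and 18.6 FPKM of *Psg27* and 20.8 and 18.4 FPKM of *Prl8a2*. The mix of placental transcripts thus differed among mice of 1 group, while the ratio of *Prl2b1*, *Prl8a9* and *Tpbpb* to *Tpbpa* stayed within 1.84-fold over all libraries.

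**Figure D4:**
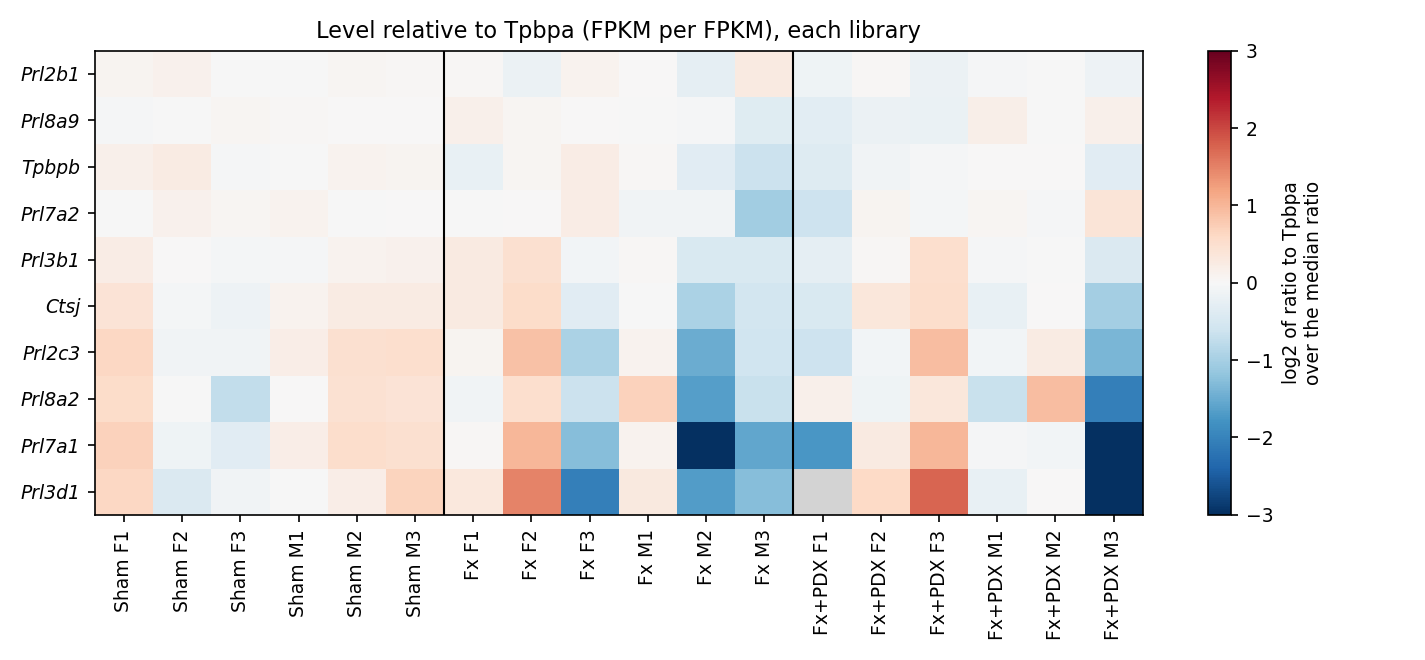
Level of 10 members relative to *Tpbpa* in each library (Fx, fracture; F, female; M, male), as the log2 of the FPKM ratio over its median in 18 libraries, with colours ending at 3 either way and grey for a level of 0. The upper rows stay near their median, while *Prl7a1* and *Prl3d1* are low in fracture male 2 and PDX male 3 and high in fracture female 2 and PDX female 3.

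Genes outside the rule followed the same libraries. The 10 genes with the highest Spearman correlation of CPM with the summed CPM of the 53, among 25950 genes, were *Krt18* (0.99), *1600012P17Rik*, *Ceacam3*, *Serpinb9e*, *Krt8*, *Taf7l*, *Tnfrsf9*, *Krt19*, *Hand1* and *Rhox6* (0.97). *Krt8*, *Krt18* and *Krt19* are keratins of simple epithelia and trophoblast, *Hand1* is a transcription factor of giant cells, and *Rhox6* is a homeobox gene of placenta and germ cells. *Krt18* had 33.6 ± 9.74 CPM in sham, 11.0 ± 5.12 CPM in fracture and 8.53 ± 3.52 CPM in fracture plus PDX (SD, n = 6 each).

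A list of 24 other placental genes gave a like picture. Of its 22 genes in the table, all with at least 3 counts in some library, 21 were tested against sham. After fracture 12 were lower, against 1.83% of all genes tested, and after fracture with PDX 17 were lower, against 2.32%, by edgeR at an adjusted p under 0.05, with none higher. *Peg10*, an imprinted gene needed for the placenta, had 3746 to 10617 counts in sham and 2445 to 4218 in fracture. *Elf5*, a factor of trophoblast stem cells and of other epithelia, did not follow, with 60 to 181 counts in any library.

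Embryonic blood and yolk sac genes were present beside them. *Hbb-y*, the embryonic beta globin, had 3165 to 6014 counts in sham, 791 to 2442 in fracture and 712 to 2526 in fracture plus PDX. *Afp*, alpha-fetoprotein of yolk sac and fetal liver, had 3771 to 14482 counts in sham but followed the sum less closely (Spearman's correlation 0.30 over 18 libraries). In fracture female 3, whose placental sum was high, *Afp* had 67 counts and *Alb*, *Apoa2*, *Fgb* and *Apoa4* had none, while *Serpina1a*, the other liver gene listed, had 99 counts, within its range of 59 to 189 over all libraries. In the other 17 libraries *Afp* had at least 1328 counts.

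Genes of other tissues varied. The 4 liver genes tested had a median log2 fold change of -0.99 after fracture and -0.77 after fracture with PDX, each against sham, and the 3 intestine genes tested had one of -0.69 and -0.56. None of these liver and intestine genes passed in either comparison. The medians of 3 retina genes were 0.19 and 0.16 and those of 3 kidney genes -0.31 and -0.08. The 1 pancreas gene tested had values of 0.29 and 0.06. The medians over all genes tested were 0.0021 and -0.0013. *Apoa2*, an apolipoprotein of liver, had a Spearman's correlation of 0.48 with the placental sum, the highest of the 4 liver genes, and *Alb* had the lowest, 0.23. The testis genes *Prm1* and *Odf1* had at most 13 and 11 counts. Of the pancreas genes, *Prss2* had 4 counts in 1 library while *Pnlip* had 104 to 283 counts in every library. *Pomc*, of the pituitary, had 29 to 84 counts with a correlation of 0.03 with the placental sum. The part of these levels in the difference between groups was not tested.

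**Figure D5:**
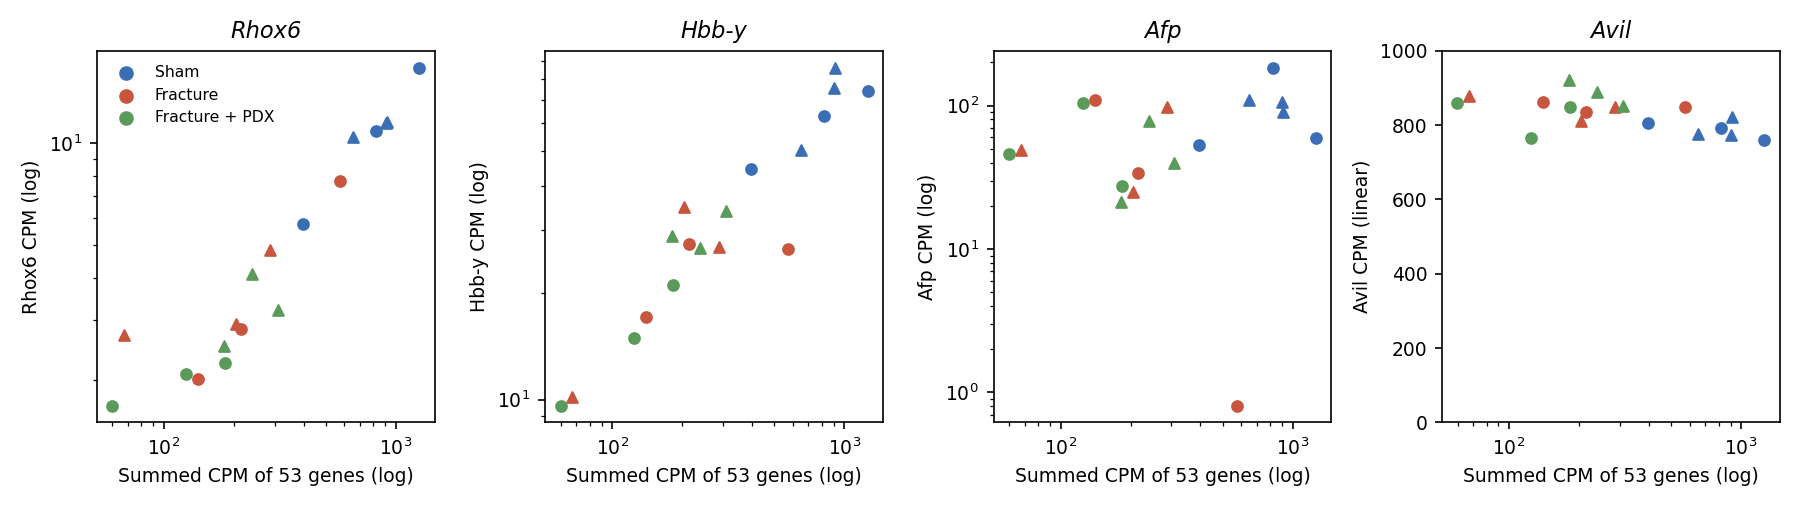
CPM of *Rhox6*, *Hbb-y*, *Afp* (log axes) and *Avil* (linear axis from 0) against the summed CPM of the 53 genes (log axis), 1 point per library, circles for females and triangles for males. *Rhox6* and *Hbb-y* rise with the sum, *Afp* is low in fracture female 3 alone, and the neuronal gene *Avil* stays within a narrow range.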

How the data were processed

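Poly(A) RNA of L3–L5 DRG from 18 mice was sequenced as stranded paired-end libraries. Per the labels, the submitters' processing notes name cutadapt 1.10, FastQC, HISAT2, StringTie and mm10. The deposited table holds raw counts per gene and FPKM computed by the authors; the counting program is not given in the sources used here. Columns named Con were read as the sham group, the only group without a fracture. The members and lists were chosen with earlier results of these data known.

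Counts were fitted over all genes with edgeR 4.0.16 in R 4.3.3 (TMM, filterByExpr with a minimum count of 10 and total of 15, robust quasi-likelihood test, Benjamini-Hochberg adjustment, threshold 0.05), 6 libraries against 6 with sex as a covariate. DESeq2 1.42.0, upper-quartile scaling, no filter, all 18 libraries in 1 fit, a replicate block, no covariate and each library left out were alternatives. The procedure was tested on simulated data. P-values measure the spread between mice, and 1 library was made per mouse as far as the labels say.

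By rule, values were given for members among the 12 with most counts, the 10 called with the lowest p and the single-type markers, and outside the members for the 10 closest correlates and genes of the lists. *Prl7a1*, *Psg23*, *Prl2c2* and other members outside these groups were given values after those had been seen. Fold changes were given for the 6 members with most counts and the 10 called, 15 in all since *Prl7d1* is in both, and for *Syna* and *Prl3d1*, chosen after their values were seen. *Psg29*, *Prl8a1* and others were named only to complete a count. Groups of low values were uneven: over all genes a count of 4 occurred 20795 times and a count of 3 occurred 11071 times, so the smallest counts may not be single fragments. *Cts8*, *1600014K23Rik*, *Prl3a1* and *Prl* were not analysed here. CPM differences between lowly counted members rest on few fragments.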

Additional observations from a re-analysis of the deposited data

Results flagged for a closer look

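In 48 groups of 6 libraries (the summed level and 15 named members, 3 groups each), the highest library stood apart from the rest in 3, where chance gives about 1 group in 20. *Prl2b1* reached 26 CPM and *Ctsq* reached 5.13 CPM in fracture female 3, with gaps to the next library of 0.654 and 0.679 of the range of the fracture group. *Synb* reached 3.65 CPM in sham female 2, with a gap of 0.634 of the sham range. All 3 are over the critical value of 0.625 for 6 samples.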

How the results depend on the processing

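No member was called in fracture plus PDX against fracture, or in female against male, under any alternative or with any library left out. In fracture against sham the 11 calls became 34 with DESeq2 and 4 of 53 without the filter on low counts, and 2 to 22 with each library left out in turn. In fracture plus PDX against sham the 37 calls ranged from 29 to 43 under the alternatives without a block, and from 28 to 39 with each library left out. The cause of these changes was not tested. Fitted with sex and replicate number as a block, 0 members were called in fracture against sham, 23 in fracture plus PDX against sham, and 0 in the other comparisons. The numbers do not pair the mice as far as the labels say: the deviations of same-numbered libraries correlated between -0.14 and 0.19. All tested members kept a negative fold change against sham in each of these fits.

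Over the 15 named members and all alternatives, 255 fits of fracture plus PDX against sham kept the side of the threshold and 15 lost the call, while in fracture against sham 208 kept it, 41 lost the call and 21 gained one. The fold change of *Prl2c3* in fracture plus PDX against fracture turned from -0.13 to 0.04 without fracture female 3, to 0.16 without fracture male 1 and to 0.13 without PDX female 1, and with each library left out it ranged from -0.40 to 0.16. The summed level in fracture over sham was 0.301 and ranged from 0.222 to 0.345 with each library left out, that in fracture plus PDX over sham was 0.222 (0.192 to 0.252), and that in fracture plus PDX over fracture was 0.738 (0.636 to 1). Scaling by total counts or summing FPKM moved none of these ratios by more than the spread between libraries. The number of members was 53 at 1 count or more, 52 at 10 or more and 52 at 3 or more in 2 libraries.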
